A study of Mus musculus with 6 samples.

Results

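The 10 genes described here encode the machinery of excitation-contraction coupling in skeletal muscle: Ryr1, Cacna1s, Stac3, Jsrp1, Jph1, Jph2, Casq1, Casq2, Atp2a1 and Srl. They were chosen by symbol, and all 10 were found among the 18182 genes named on the array. Together they have 13 probe sets, 1 for each of 7 genes and 2 for each of the other 3 (Ryr1, Jph1 and Jph2). Where a gene has 2, the brighter one across the 6 arrays is its main row. RNA came from GFP-positive limb cells of Tg:Pax7-nGFP mice on a C57BL/6:DBA2 background, sorted at embryonic stage E12.5 (3 arrays, replicates A, B and C) or E17.5 (3 arrays, replicates A, B and C). In these mice a Pax7 transgene drives a nuclear green fluorescent protein, so the sort selects by GFP and not by Pax7 itself. All 6 samples carry the transgene, the labels describe the replicates as biological, and whether embryos were pooled is not given in the sources used here. The question put to these genes is how their transcripts differ between the embryonic and the fetal stage.

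Excitation-contraction coupling links the electrical signal of the muscle membrane to calcium release. In skeletal muscle the voltage sensor Cav1.1 (Cacna1s) lies in the transverse tubule and opens the ryanodine receptor (Ryr1) of the sarcoplasmic reticulum, with Stac3 as an adaptor that the voltage sensor needs. Junctophilins tether the membranes, calsequestrins buffer calcium inside the reticulum, and the SERCA1 pump (Atp2a1) returns calcium to it. The apparatus is best known from differentiated fibres, while Pax7 marks their progenitors.

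The promoters of 4 members are shown because they belong to the voltage sensor and release channel, which act as a pair, and to both calsequestrins, which are paralogues. They are from RefSeq (GRCm38.p6), cover the 250 bases before the transcription start, and read 5′ to 3′ on the gene's strand. Capitals mark E-boxes (CANNTG, the element bound by MyoD family factors) and, in Casq2, a MEF2 site.
Cacna1s, chr1:136052561-136052810, plus strand: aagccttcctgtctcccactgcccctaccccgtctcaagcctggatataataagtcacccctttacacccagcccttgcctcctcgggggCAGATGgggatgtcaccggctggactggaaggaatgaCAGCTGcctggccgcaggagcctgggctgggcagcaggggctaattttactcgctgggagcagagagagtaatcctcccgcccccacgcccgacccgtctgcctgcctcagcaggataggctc
Ryr1, chr7:29125152-29125401, minus strand: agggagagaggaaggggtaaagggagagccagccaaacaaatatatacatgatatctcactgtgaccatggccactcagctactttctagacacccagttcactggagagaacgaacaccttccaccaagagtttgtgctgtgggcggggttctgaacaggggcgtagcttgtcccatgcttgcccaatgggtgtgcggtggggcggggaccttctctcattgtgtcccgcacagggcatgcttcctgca
Casq1, chr1:172219896-172220145, minus strand: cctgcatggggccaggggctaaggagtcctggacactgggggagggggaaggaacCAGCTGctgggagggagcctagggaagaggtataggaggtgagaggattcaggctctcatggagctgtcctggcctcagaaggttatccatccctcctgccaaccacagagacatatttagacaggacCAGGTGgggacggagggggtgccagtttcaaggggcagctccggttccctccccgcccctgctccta
Casq2, chr3:102086165-102086414, plus strand: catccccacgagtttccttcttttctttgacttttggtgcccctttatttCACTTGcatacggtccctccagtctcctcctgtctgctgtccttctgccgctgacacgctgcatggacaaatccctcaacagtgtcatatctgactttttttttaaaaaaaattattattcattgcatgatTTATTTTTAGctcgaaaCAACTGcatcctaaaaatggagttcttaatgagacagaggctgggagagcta
Both strands were searched over these bases and the 50 after the start, 300 in all. A promoter was available for 6 of the 10 members (Atp2a1, Cacna1s, Casq1, Casq2, Jph2 and Ryr1), with 7 windows in all. None was available for Stac3, Jsrp1, Jph1 or Srl, so no member that rose at E17.5 was covered. Members are counted below by gene, whereas the shares over all promoters count windows. The E-box form CAGCTG, which is a subset of CANNTG, was found in 4 of these 6 genes (Atp2a1, Cacna1s, Casq1 and Jph2), against 16.3% of all 32851 promoters of this length. Any CANNTG was found in 5 of the 6, with Ryr1 as the one without, against 72.3% of all promoters. A MEF2 site was found in 1, Casq2, against 3.19% of all promoters. The CAGCTG of Cacna1s began 123 bases before the start and that of Atp2a1 55 bases before it. A match is a run of letters and not a measured site, and no test was made of these shares.

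Values are log2 signals after GCRMA, the authors' background correction and normalization, so a step of 1 is a doubling of signal. Differences are E17.5 minus E12.5 with the standard error (SE) and the Benjamini-Hochberg adjusted p of limma over all 18182 genes, and a gene counts as called at an adjusted p under 0.05. Signals under 4 lie in the range where GCRMA places probe sets with little specific signal (42.8% of genes had a mean under 4). The array medians lay between 3.38 and 3.47, and the number of arrays limits the precision. Across the 8758 genes whose mean reached 6, the SD of the difference between E17.5 A and B was 0.152, while the 5 remaining same-age pairs gave 0.412 to 0.551. They may not be independent, so values are also given with A and B averaged into 1 sample, called the averaged fit. Since nothing else in the labels says that the samples came from separate litters, p-values measure the spread between these arrays.

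Of the 10 coupling genes, 3 rose at E17.5 (Jsrp1, Stac3 and Srl), 1 fell (Casq1) and 6 were not called. Over all genes 8.21% were called higher and 8.73% lower. In the averaged limma fit 3 members were higher and 0 lower (1 lower at an unadjusted p under 0.05), against 5.62% and 4.54% of all genes. The median difference of the 10 members was 0.59, that of all genes 0.0033. All 3 arrays of one age lay above all 3 of the other for 4 members that were higher at E17.5 and 1 that was lower, against 14.2% and 17.2% of all genes. The calls differed among the members. Transcripts of a pair of junctional proteins went from the low range to clear signal, while those of the release channel, the voltage sensor and the calcium pump were not called. A gene not called is not shown to be unchanged. The voltage sensor gene Cacna1s had no signal above the low range. Ryr1 was called with the mean of its probe sets (1.06, limma adjusted p = 0.00795). In sorted cells, fewer cells of a type and less RNA per cell cannot be told apart.

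**Figure D1:**
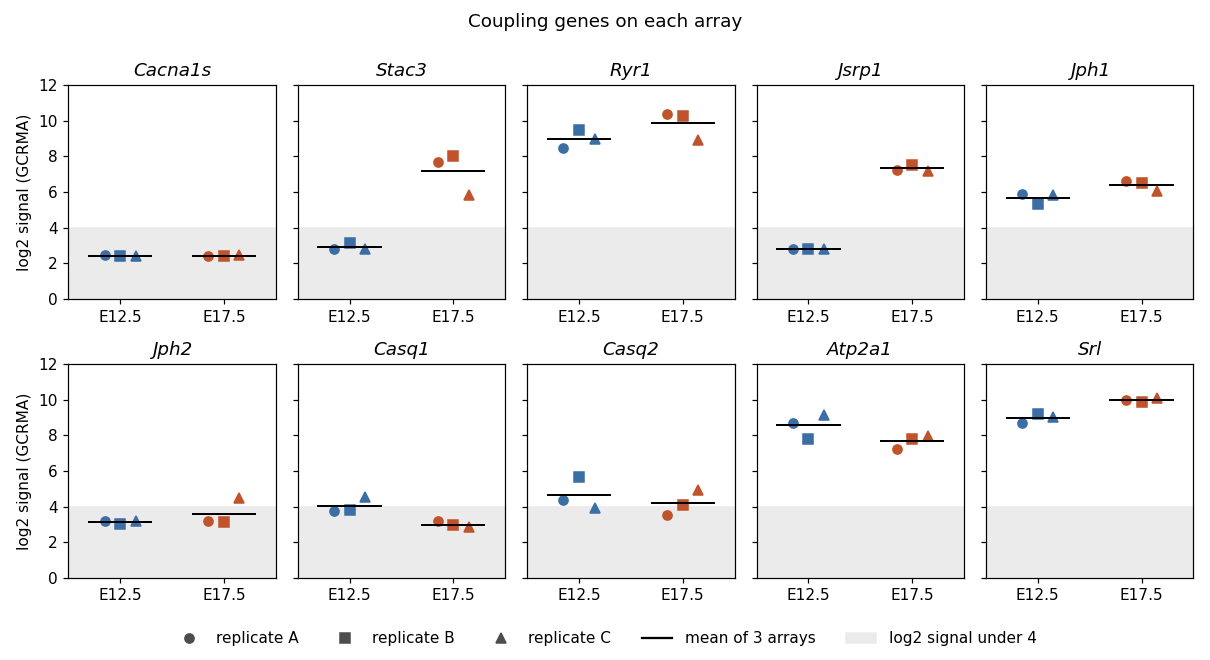
The log2 signal of each of the 10 coupling genes (vertical axis) on the 3 E12.5 and 3 E17.5 arrays, with replicates A, B and C as circle, square and triangle and a line at the mean of 3 arrays; grey marks signals under 4. Jsrp1 and Stac3 go from the grey range to a mean above 7, Cacna1s stays at 2.40 to 2.45 on every array, and Srl shifts by 1.02 within bright signal.

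The voltage sensor gene itself gave no signal above the low range. Cacna1s, the pore subunit of Cav1.1, stood at 2.44, 2.42 and 2.43 in E12.5 replicates A, B and C and at 2.40, 2.40 and 2.45 at E17.5. All 6 arrays lay under 4 and the ages overlapped (difference -0.013, SE 0.024, adjusted p = 0.854). A value this low is no measure of a level, so neither presence nor absence of the transcript follows from this one probe set.

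Its adaptor Stac3 rose. Stac3 carries the voltage sensor to the membrane and is required for coupling in skeletal muscle. Its signal was 2.83, 3.15 and 2.78 at E12.5 and 7.68, 8.01 and 5.83 at E17.5. All E12.5 arrays were under 4 and all E17.5 arrays above it, with E17.5 replicate C well below the other two. The means were 2.92 ± 0.20 and 7.17 ± 1.2 (SD, n = 3 each), a difference of 4.25 (SE 0.57, limma adjusted p = 0.00338; 3.92 and adjusted p = 0.0112 in the averaged fit). That is 19.1-fold on the deposited scale and 9.02-fold with every value under 4 raised to 4. The paralogues Stac and Stac2 stayed under 4 on every array, between 2.84 and 2.97 for Stac and between 2.16 and 2.21 for Stac2.

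At the junction with the sarcoplasmic reticulum, Jsrp1 rose. Jsrp1 (JP-45) is a reticulum membrane protein that binds both the voltage sensor and calsequestrin. Its signal was 2.80, 2.82 and 2.82 at E12.5 and 7.26, 7.51 and 7.19 at E17.5. The ages were far apart. The E12.5 values were close together but all under 4, where a value is no measure of a level. The means were 2.81 ± 0.012 and 7.32 ± 0.17 (SD, n = 3 each), a difference of 4.51 (SE 0.21, limma adjusted p = 7.63e-05; 0.000624 in the averaged fit). With values under 4 raised to 4 the fold went from 22.7 to 9.99. With that floor the log2 differences of Jsrp1 and Stac3 were 3.32 and 3.17 (limma adjusted p = 0.000501 and 0.035). With array weights or without E17.5 replicate C, Stac3 (4.98 and 4.93) exceeded Jsrp1 (4.54 and 4.57).

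Ryr1, the calcium release channel, had bright signal at both ages, and its 2 probe sets did not give the same result. The main probe set read 8.45, 9.50 and 8.97 at E12.5 and 10.37, 10.29 and 8.89 at E17.5. E17.5 replicate C lay within the E12.5 values, and the difference of 0.88 (SE 0.45, adjusted p = 0.277, 95% interval -0.20 to 1.95) was not called. The other probe set read 8.67, 8.06 and 8.59 at E12.5 and 9.37, 9.71 and 9.97 at E17.5. Here the ages did not overlap and replicate C was the highest. In a fit over all 44994 probe sets, chosen after the data were seen, this probe set was called (1.24, SE 0.23, limma adjusted p = 0.0235) and the main one was not (adjusted p = 0.392). With the mean of both probe sets Ryr1 was called (1.06, adjusted p = 0.00795). Without E17.5 replicate C the main probe set was called too (1.36, limma adjusted p = 0.0367). That fit rests at E17.5 on A and B alone, which may not be independent. In the averaged fit the main probe set was not called (0.64, limma adjusted p = 0.567). It was also not called without E17.5 replicate A (0.575) or B (0.569).

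**Figure D2:**
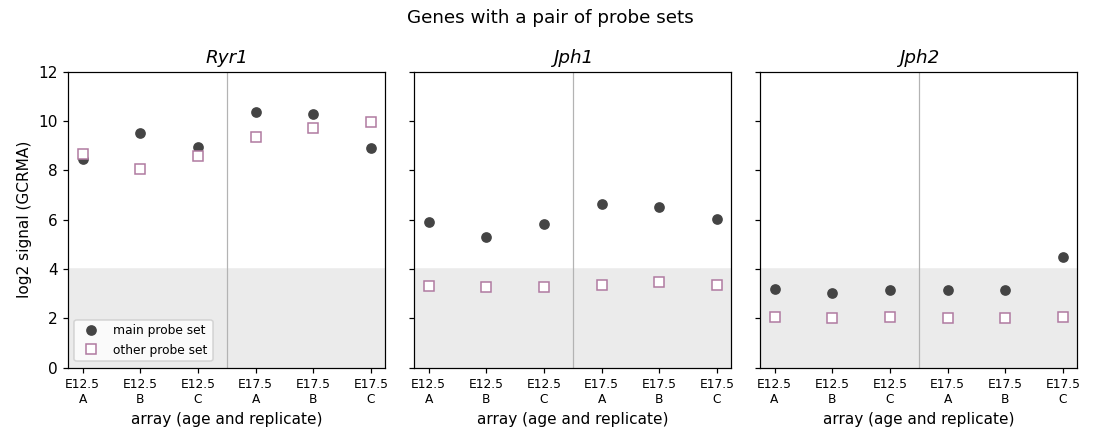
The log2 signal of both probe sets of Ryr1, Jph1 and Jph2 on each array (horizontal axis, age and replicate), with filled circles for the main probe set, open squares for the other, and grey for signals under 4. On E17.5 replicate C the Ryr1 probe sets read 8.89 and 9.97; the second probe sets of Jph1 and Jph2 stay under 4 on all arrays.

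The junctophilins, which hold the reticulum close to the transverse tubule, were not called. Jph1, the main skeletal muscle form, read 5.91, 5.31 and 5.83 at E12.5 and 6.62, 6.50 and 6.04 at E17.5. Every E17.5 array lay above every E12.5 array, but replicate C by only a small step (difference 0.70, SE 0.28, adjusted p = 0.158, 95% interval 0.029 to 1.38). Its second probe set was between 3.28 and 3.48. Jph2, the form also found in heart, read 3.18, 3.04 and 3.16 at E12.5 and 3.16, 3.15 and 4.49 at E17.5. A single array, E17.5 replicate C, stood above 4 (difference 0.47, SE 0.35, adjusted p = 0.504), and without it the difference was 0.028.

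Inside the reticulum, Casq1 fell and Casq2 was not called, both at low signal. Casq1, the fast-fibre calsequestrin, read 3.74, 3.78 and 4.53 at E12.5 and 3.16, 2.95 and 2.86 at E17.5. The ages did not overlap, but 5 of the 6 arrays were under 4 (difference -1.03, SE 0.23, limma adjusted p = 0.0236). The call of Casq1 was lost by averaging E17.5 A and B (adjusted p = 0.0632) and without E17.5 replicate A (0.0507), B (0.0838) or C (0.0671). With values under 4 raised to 4 its difference was -0.18 (adjusted p = 0.71). Casq2, the form of heart and slow fibres, read 4.36, 5.64 and 3.90 at E12.5 and 3.51, 4.09 and 4.91 at E17.5. The arrays of the ages interleaved (difference -0.46, SE 0.53, adjusted p = 0.728), and without E12.5 replicate B, the highest array, the difference was 0.04.

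Srl rose, and Atp2a1 was not called. Srl encodes sarcalumenin, a calcium-binding protein of the reticulum lumen that supports the pump. It read 8.67, 9.17 and 9.04 at E12.5 and 9.97, 9.87 and 10.10 at E17.5. All arrays were bright and the ages were separate (difference 1.02, SE 0.16, limma adjusted p = 0.00626; 0.026 in the averaged fit), a 2.03-fold change with no array in the low range. Atp2a1, the fast-fibre SERCA1 pump, read 8.70, 7.79 and 9.15 at E12.5 and 7.24, 7.78 and 7.93 at E17.5. E12.5 replicate B lay among the E17.5 arrays (difference -0.90, SE 0.37, adjusted p = 0.171, 95% interval -1.78 to -0.011). Without that array Atp2a1 was called lower (-1.28, limma adjusted p = 0.0355). Leaving out any other array gave no call (limma adjusted p = 0.186 to 0.413). The averaged fit gave none either (-0.83, limma adjusted p = 0.329).

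**Figure D3:**
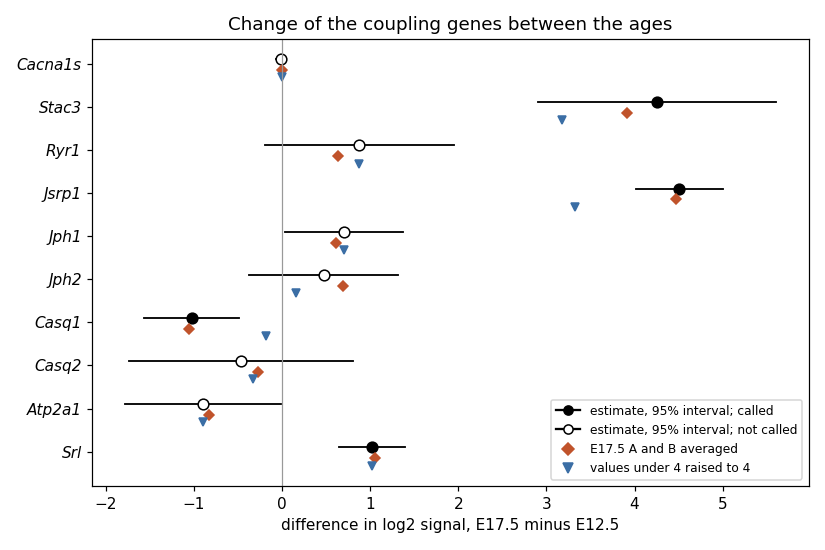
The difference in log2 signal, E17.5 minus E12.5 (horizontal axis), for each coupling gene, as a circle with its 95% interval from limma, filled where called; diamonds give the averaged fit and triangles the values with signals under 4 raised to 4. Jsrp1 (4.51), Stac3 (4.25) and Srl (1.02) are called higher and Casq1 (-1.03) lower, and the triangle of Casq1 moves to -0.18.

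Unequal change between paralogues was compared in 6 pairs with an exact permutation test over the 6 arrays, where the smallest two-sided p is 0.1. The gap between Stac3 and Stac2 widened by 4.25 (exact p = 0.1, 0.3 adjusted over the 6 pairs), with Stac2 under 4 throughout. For Cacna1s against Cacna1c, the Cav1.2 subunit of heart and smooth muscle, the gap moved by 1.21 (exact p = 0.1, adjusted 0.3). That shift came with the Cacna1c probe set going from 4.06, 3.88 and 4.11 to 2.72, 2.72 and 2.93, and with values under 4 raised to 4 the gap moved by 0.057 (exact p = 0.4). With the same floor the Stac3 gap widened by 3.17 (exact p = 0.1). Ryr1 against Ryr3 gave 0.70 (exact p = 0.3), Atp2a1 against Atp2a2 -0.58 (exact p = 0.2), Casq1 against Casq2 -0.56 (exact p = 0.6) and Jph1 against Jph2 0.23 (exact p = 0.8). No pair could pass 0.05 in this design, and the Casq and Jph values changed sign in some alternatives.

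Atp2a2, the SERCA2 pump of slow fibres and of most other cells, was bright at both ages. Its main probe set read 12.24, 11.78 and 12.04 at E12.5 and 11.54, 11.55 and 12.02 at E17.5, and was not called (-0.32, adjusted p = 0.328). Of its 6 probe sets 1 was called, in the other direction (0.73, SE 0.094, limma adjusted p = 0.00614 over all probe sets). Ryr3, a release channel of developing muscle, had 3 probe sets and reached at most 3.12. Trdn, which encodes triadin, the anchor between calsequestrin and the ryanodine receptor, had 6 probe sets and none above 4.0 on any array.

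A wider list of 65 genes of coupling and calcium handling was read beside the members, of which 57 were measured. Of these 9 rose, 2 fell and 46 were not called (5 higher and 2 lower in the averaged fit), with a median difference of 0.027. These shares, and the counts of each group below, are to be read against 8.21% higher and 8.73% lower over all genes. In the averaged fit 5.62% of all genes were called higher and 4.54% lower. Of the 57 genes 23 were under 4 on every array, a share close to that of all genes (7145 of 18182). Among the 23 were Pvalb, the parvalbumin of fast fibres, Pln (phospholamban), Hrc, Clcn1, the muscle chloride channel, and Trim72.

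In the transverse tubule group 2 of 8 genes rose and 1 fell. Cav3, the muscle caveolin, which takes part in tubule formation, read 3.03, 3.36 and 3.06 at E12.5 and 6.08, 6.16 and 5.90 at E17.5. It moved from the low range to clear signal on all 3 arrays (2.90, SE 0.20, limma adjusted p = 0.000244; 2.05 with values under 4 raised to 4). Ank1, an ankyrin whose small muscle form sits in the reticulum, rose from 8.63 ± 0.19 to 10.38 ± 0.074 (1.75, SE 0.13, limma adjusted p = 0.000339), and by 0.94 with the mean of its probe sets (adjusted p = 0.00689). Mtm1, the phosphatase myotubularin, fell from 11.96 ± 0.22 to 10.57 ± 0.45 (-1.39, limma adjusted p = 0.00932), but with the mean of its probe sets it was at -0.65 (adjusted p = 0.194). Bin1, which shapes tubule membrane, read 8.24, 9.43 and 9.53 and then 10.49, 10.47 and 9.89, and was not called (1.22, adjusted p = 0.07). Averaging its probe sets gave 0.70 and a call (adjusted p = 0.0489), and array weights also gave one (1.04, adjusted p = 0.00315).

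Among 18 measured release and junction genes 4 rose and 0 fell by limma, with 4 higher and 1 lower at an unadjusted p under 0.05. At that unadjusted limma p 2342 of all 18182 genes were higher and 2825 lower. Tmem38b and Tmem38a encode the TRIC cation channels that balance charge during calcium release. Tmem38b rose from 5.81 ± 0.50 to 8.22 ± 0.57 (2.41, limma adjusted p = 0.00656) and Tmem38a from 5.64 ± 0.16 to 6.87 ± 0.12 (1.23, limma adjusted p = 0.00982; 0.052 in the averaged fit and 0.0654 without E17.5 replicate B). With the mean of each gene's probe sets the rises were smaller, at 1.12 (adjusted p = 0.00176) for Tmem38b and 0.62 (adjusted p = 0.0124) for Tmem38a. The inositol trisphosphate receptor genes Itpr2 and Itpr3, release channels outside the voltage-driven path, rose by 2.09 and 2.03. The call of Itpr2 (limma adjusted p = 0.00335) was lost when probe sets shared by several transcripts were dropped (1.03, adjusted p = 0.0778), and with the mean of its probe sets the difference was 0.94. That of Itpr3 (0.0441) was lost by averaging (0.08), with the floor at 4 (1.32, adjusted p = 0.0844) and without any one array other than E12.5 replicate B (0.0668 to 0.137).

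In the remaining groups at most 1 gene each was called: 1 of 9 pump genes, 1 of 5 of store-operated entry, 1 of 4 of membrane excitability, 1 of 10 voltage sensor partners and 0 of 3 calcium buffers (0 at an unadjusted limma p under 0.05). Mrln, which encodes myoregulin, a small SERCA inhibitor of skeletal muscle, read 9.18, 8.93 and 9.54 at E12.5 and 10.42, 10.24 and 10.37 at E17.5. It was higher on all 3 E17.5 arrays (1.13, SE 0.17, limma adjusted p = 0.00555; 0.0232 in the averaged fit). Stim2, a calcium sensor of store-operated entry, rose by 0.78 (adjusted p = 0.0192) and Atp1b1, a sodium pump subunit, by 1.17 (adjusted p = 0.0449). The averaged fit called neither (adjusted p = 0.0785 and 0.065). Stim2 was also lost without E12.5 B, E17.5 A or E17.5 B (0.0537 to 0.0801). Atp1b1 was lost without any one of the E12.5 arrays or E17.5 A (0.0803 to 0.122). The call among the voltage sensor partners was the fall of Cacna1c (-1.23, limma adjusted p = 0.000586), which with values under 4 raised to 4 was -0.057 (adjusted p = 0.336) and with the mean of its probe sets -0.80. Cacng1, the gamma subunit of Cav1.1, read 3.17, 2.87 and 3.30 and then 3.58, 4.05 and 5.24, and was not called (1.18, adjusted p = 0.106). It was called without E17.5 replicate A (1.53, adjusted p = 0.0493).

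**Figure D4:**
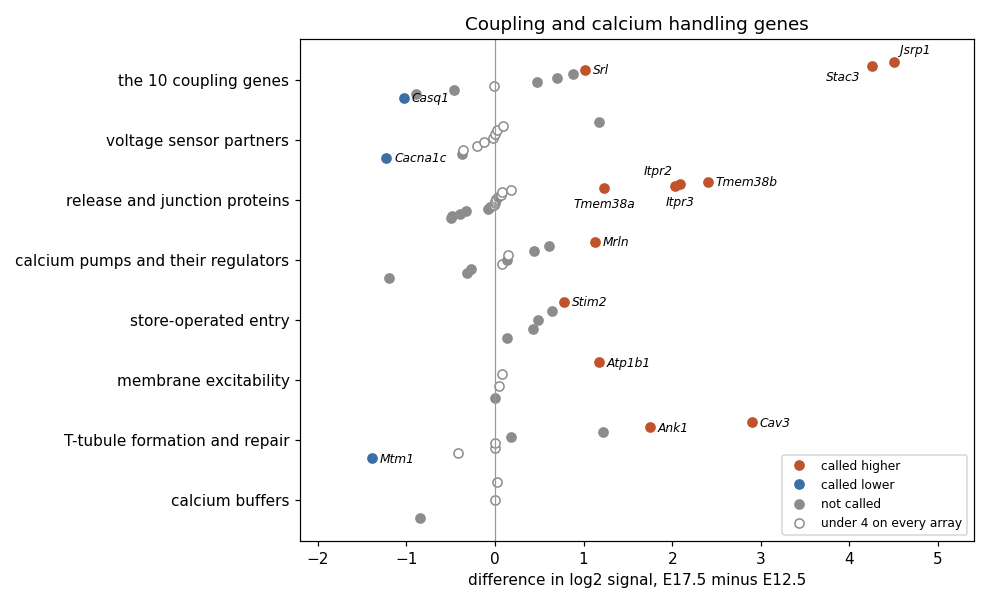
The difference in log2 signal, E17.5 minus E12.5 (horizontal axis), of the 10 coupling genes and of 57 further genes in 7 groups, 1 point a gene, with called genes in colour and named, and open points for genes under 4 on every array. Called genes of the groups lie between -1.39 (Mtm1) and 2.90 (Cav3), and open points between -0.41 (Dysf) and 0.18 (Ryr3).

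The sorted cells were checked against markers of muscle and of other cells. Pax7 was at 11.46 ± 0.28 and 12.37 ± 0.15 (0.91, limma adjusted p = 0.0105), and the differentiation factor Myog rose from 11.20 ± 0.75 to 13.06 ± 0.070 (1.86, limma adjusted p = 0.0128). Of 11 measured myogenic factors 5 rose and 2 fell. This count and those of the marker lists below are to be read against 8.21% called higher and 8.73% lower over all genes. Of 27 contractile genes of fibres 6 rose, 4 fell and 17 were not called (6 higher and 1 lower in the averaged fit). Their mean log2 signal was 6.58 to 7.05 on the E12.5 arrays and 7.11 to 7.47 on the E17.5 arrays. Ckm rose from 2.47 on all 3 arrays to 5.27 ± 0.31 (2.80, and 1.27 with values under 4 raised to 4 or 1.40 with the mean of its probe sets), whereas Myh3, the embryonic myosin, was not called (-0.73, adjusted p = 0.514), nor was Acta1 (1.76, adjusted p = 0.117; called without E12.5 replicate B, 2.46, adjusted p = 0.0132). Some fibre genes moved in the direction of Jsrp1 and Stac3. The 4 that fell were Myh7 (-2.33), Tnnc1 (-2.25), Myoz1 (-1.58) and Actn3 (-1.34). The part of the fibre genes in the result was not tested. Actb was not called (-0.057, adjusted p = 0.874), while Hprt, another common reference gene, was higher (0.80, limma adjusted p = 0.00168).

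Several members are also expressed in heart muscle. Of 11 heart markers 7 were under 4 on every array, including Nkx2-5, Nppa, Nppb, Myl7 and Gata4, 0 rose and 3 fell by limma (Hand2, which also patterns the limb bud, Myh6 and Tnni3; 0 and 3 at an unadjusted p under 0.05), and their mean signal was 3.66 to 3.95 at E12.5 and 2.85 to 2.96 at E17.5. Of 9 smooth muscle and pericyte markers 4 rose and 2 fell (mean signal 5.72 to 5.95 and 6.60 to 6.87), with Myh11 and Cnn1 under 4 on every array. E12.5 replicate B, the array with the highest Casq2, was also the highest E12.5 array in the mean of the fibroblast (9.57 against 7.62 and 8.05), cartilage (5.69 against 4.69 and 4.82), endothelial (4.47 against 3.43 and 3.46) and keratinocyte lists (6.70 against 5.43 and 5.70), and in the contractile list (7.05 against 6.58 and 6.80). E17.5 replicate C, the array that stood apart for Stac3, Ryr1 and Jph2, was the lowest E17.5 array in the fibroblast (8.04 against 9.02 and 9.05), cartilage (4.10 against 5.05 and 5.11) and tendon lists (5.27 against 6.69 and 6.73). It was the highest in the contractile list (7.47 against 7.11 and 7.16). The part of these differences in the values of the coupling genes was not tested. The members' own mean signal was 5.11 to 5.26 on the E12.5 arrays and 6.07 to 6.26 on the E17.5 arrays.

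Of the other lists, fibroblast genes had 2 called higher and 3 lower of 11, cartilage and bone 0 of 7, tendon 1 and 1 of 4, and endothelial genes 1 higher of 7 with Pecam1 under 4 throughout. Red blood cell genes had 2 lower of 6, leukocyte genes 2 higher of 7 with Ptprc under 4 throughout, neuron and Schwann cell genes 1 lower of 6, and keratinocyte genes 3 lower of 6. Some called markers changed strongly. From E12.5 to E17.5 the mean rose for Dpt (2.10 to 11.14), Tek (5.29 to 10.18) and Cd68 (3.69 to 6.68). It fell for Hbb-y (14.08 to 3.67), Epcam (7.20 to 3.10) and Pdgfra (10.01 to 6.33). The endothelial genes other than Tek were not called, and Kdr (-1.37) and Cldn5 (-0.83) had lower means at E17.5. Of the leukocyte genes not called, Csf1r was at -0.64 and Adgre1 at 0.21. The part of these markers in the values of the coupling genes was not tested. In limma at an unadjusted p under 0.05, 1 cartilage gene was lower (Col2a1) and none was higher.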

How the data were processed

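RNA from GFP-positive limb cells was hybridised to 6 single-colour Affymetrix arrays after amplification from the 3′ end, per the labels' protocols. The authors deposited log2 signals per probe set made with GCRMA, per the submitters' processing notes; its version is not given in the sources used here. The background model sets the values of dim probe sets, so differences against that range depend on it.

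Symbols came from the platform annotation and were brought up to date through entrez IDs in RefSeq (GRCm38.p6), which held 34705 of the 34909 probe sets with a single symbol. The table has 44994 probe sets; 931 carrying several symbols stayed out of the fit, as did 9154 without a name here. The main fit was limma 3.58.1 in R 4.3.3 (lmFit, eBayes with an intensity trend), without filter or further normalization, over 18182 genes. It was tested on simulated data, but the setting and outcome of that test are not given here.

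Named genes were the 10 members, up to 3 risen and 3 fallen called genes per wider list whose ages did not overlap, the fixed paralogues, and muscle and level references. Tmem38a, Trdn, Cacng1 and Bin1, and genes named only as under 4 or as called in a marker list, were named after their values were seen. The members and lists were chosen with earlier results of these data known. Sequences are RefSeq promoters. Figures used matplotlib 3.10.9. Alternatives changed the variance prior, the weights of arrays and the probe set of a gene, and added filters and a floor on dim signal, 2 other normalizations, a replicate block, a threshold of 0.01, averaging E17.5 A and B, and leaving out each array.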

Additional observations from a re-analysis of the deposited data

How the results depend on the processing

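Jsrp1, Stac3 and Srl kept their direction and their call under every alternative that gave a value, and the filter at a mean of 6 left out Jsrp1 and Stac3. Each has 1 probe set, so alternatives that change the probe set of a gene could not change their differences. The count of higher members (3) was 5 with array weights and 1 with the filter at 6. The count of lower members (1, Casq1) was 3 with array weights. It was 0 with either filter, the floor at 4, quantile normalization, the replicate block, E17.5 A and B averaged or a threshold of 0.01, and 0 to 2 when 1 array was left out. The wider list (9 higher, 2 lower) gave 14 and 12 with array weights, 5 higher with the replicate block, 5 when E17.5 A and B were averaged, and 1 lower with the floor. Array weights put most weight on E17.5 A (4.98), E12.5 C (4.80) and E17.5 B (3.24). The replicate block changed the calls of Casq1 (adjusted p = 0.0551), Itpr3 (0.0978), Stim2 (0.0586), Atp1b1 (0.0576) and Tmem38a (0.0586) among the genes named. The labels do not say that the letters pair the arrays. Deviations of same-letter arrays from their age means correlated at -0.38 (A), 0.25 (B) and -0.07 (C). Those of arrays with different letters correlated at -0.34 to 0.37. Deviations within an age depend on one another, so these values cannot decide whether arrays were paired.

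Signs turned at small differences. With array weights Stac2 was at -0.018, Myod1 at -0.066 and Trdn at -0.12, and with arrays centred on bright genes Stac2 was at -0.01. Leaving out 1 array gave -0.83 to 0.04 for Casq2, -0.01 to 0.01 for Stac2 and -0.052 to 0.16 for Trdn. The Casq1 and Casq2 gap was 0.16 with the floor and -1.18 to 0.06 without 1 array. The Jph1 and Jph2 gap was -0.079 when E17.5 A and B were averaged and -0.11 to 0.85 without 1 array. Over 35 genes, 591 of 650 values kept direction and call, 35 lost a call, 15 gained one and 9 turned. The 591 include values that could not differ, as for genes with 1 probe set when only the probe set was changed. They also include dim genes that merely stayed uncalled, so the tally is no measure of robustness. The floor at 4 shows where a value depends on dim signal, and the cause of these changes was not tested. Signal over background limits Cacna1s, Jph2, Casq1, Stac2 and Trdn, whose main probe sets lay wholly or mostly under 4.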
